A study of Mus musculus with 22 samples.

Results

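Clotting factors, their inhibitors and the proteins of the complement system are made largely by the liver, and 35 such genes are described here in livers of mice fed a high-fat diet and of mice fed chow. The genes were chosen by symbol, for what their proteins do, with earlier results of these data known. All 35 were found among the 23227 genes of the messenger RNA (mRNA) tables and among the 23167 gene promoters of a table of histone acetylation. They comprise 13 genes of the clotting cascade and the contact system, 6 inhibitors, anticoagulants and fibrinolysis genes, 6 genes of the classical and alternative complement pathways, 6 genes of terminal complement and 4 genes of the lectin pathway.

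The mice were wild type C57BL/6J. One group was switched at 8 weeks of age to a high-fat diet that lasted 16 weeks, and the other was kept on standard chow. All livers were taken at 24 weeks of age after an overnight fast, clamp-frozen and pulverised, so each library is bulk tissue. There were 3 mRNA libraries per diet and 3 libraries per diet for histone H3 acetylated at lysine 27 (H3K27ac), a mark of active promoters and enhancers measured by chromatin immunoprecipitation and sequencing (ChIP-seq). The labels give no sex, and they do not say whether libraries with the same replicate number came from the same animal, so p-values measure only the spread between these samples.

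Clotting proceeds as a chain of proteases, each activating the next, until thrombin cuts fibrinogen into fibrin. Plasma inhibitors and the protein C system hold the chain in check, and plasmin dissolves the clot. Complement is a second protease chain of the blood: the classical, lectin and alternative pathways converge on cleavage of C3, after which the terminal components assemble a pore in the target membrane. Hepatocytes secrete most of these proteins, and several are acute-phase proteins, whose synthesis changes with inflammatory cytokines.

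Total counts were 20977959 to 23948777 per library on the high-fat diet and 19016275 to 45741794 on chow for mRNA, and 1967613 to 3788577 on the high-fat diet against 2376133 to 4964403 on chow for H3K27ac at promoters. Levels are given as CPM, counts rescaled to a library total of 1e+06 after TMM scaling. Hepatocyte markers were abundant in every library, with a summed level of 92460 to 113800 CPM on the high-fat diet and 99450 to 107000 CPM on chow over 7 markers, of which Ttr rose, Cps1 fell and 5 did not pass. Kupffer cell and macrophage markers summed to 343.8 to 638.6 CPM on the high-fat diet and 286.9 to 530.8 CPM on chow, and 1 of 13 passed the test, upward. Markers of exocrine pancreas, a neighbouring tissue, summed to 10.91 to 233.7 CPM on the high-fat diet and 399.8 to 2415 CPM on chow, with 17 of 19 lower and the highest sum in chow replicate 1. No marker of these lists was at 0 in all libraries, and the part of other cells in the results below was not tested. In bulk tissue, fewer cells of a type and less RNA per cell cannot be told apart.

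All 35 genes passed the filter on low counts in the mRNA table, and 12 of them (34.3%) changed with diet, 9 upward and 3 downward, at an adjusted p under 0.05 in edgeR's quasi-likelihood test with Benjamini-Hochberg adjustment over all genes tested. The same rule called 35.6% of all 12909 genes tested, 18% upward and 17.6% downward. The share of members called was thus near that of genes at large, while members were called upward 3 times as often as downward. Of the 23 members that did not pass, 16 had a positive log2 fold change (high-fat diet over chow). In all, 10 members (28.6%) had a log2 fold change below 0, against 47.9% of all genes. The median log2 fold change was 0.18 over the members and 0.024 over all genes. The genes that rose were C4b, Mbl2, F7, C4bp, Serpinf2, Cfb, C2, Masp2 and Serpind1, and those that fell were C6, Pros1 and F13b. Only C4b and C6 differed by more than 2-fold. High-fat-diet and chow libraries stood fully apart in 13 members upward and 4 downward, 48.6% of the members, against 50.6% of all genes (25.1% upward and 25.5% downward). An unadjusted p under 0.05 was reached by 19 members, and by 46.6% of all genes. The members carried many counts: 30 of 35 lay in the top decile of genes by mean CPM, and in that decile 22.5% of genes were called higher and 28.7% lower. Scaling by total counts in place of TMM gave 15 members upward and 2 downward. That scaling added C8g, Cfi, F10, F2, Plg and Proc upward, and DESeq2 in place of edgeR added F11, F2 and Plg. The count of members called upward was 4 without chow replicate 2, 5 without chow replicate 3 and 17 without high-fat-diet replicate 3. C4b, C4bp, F7, Mbl2, C6 and Pros1 passed with the same sign in every one of the fits run, including those that left out each library in turn.

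**Figure D1:**
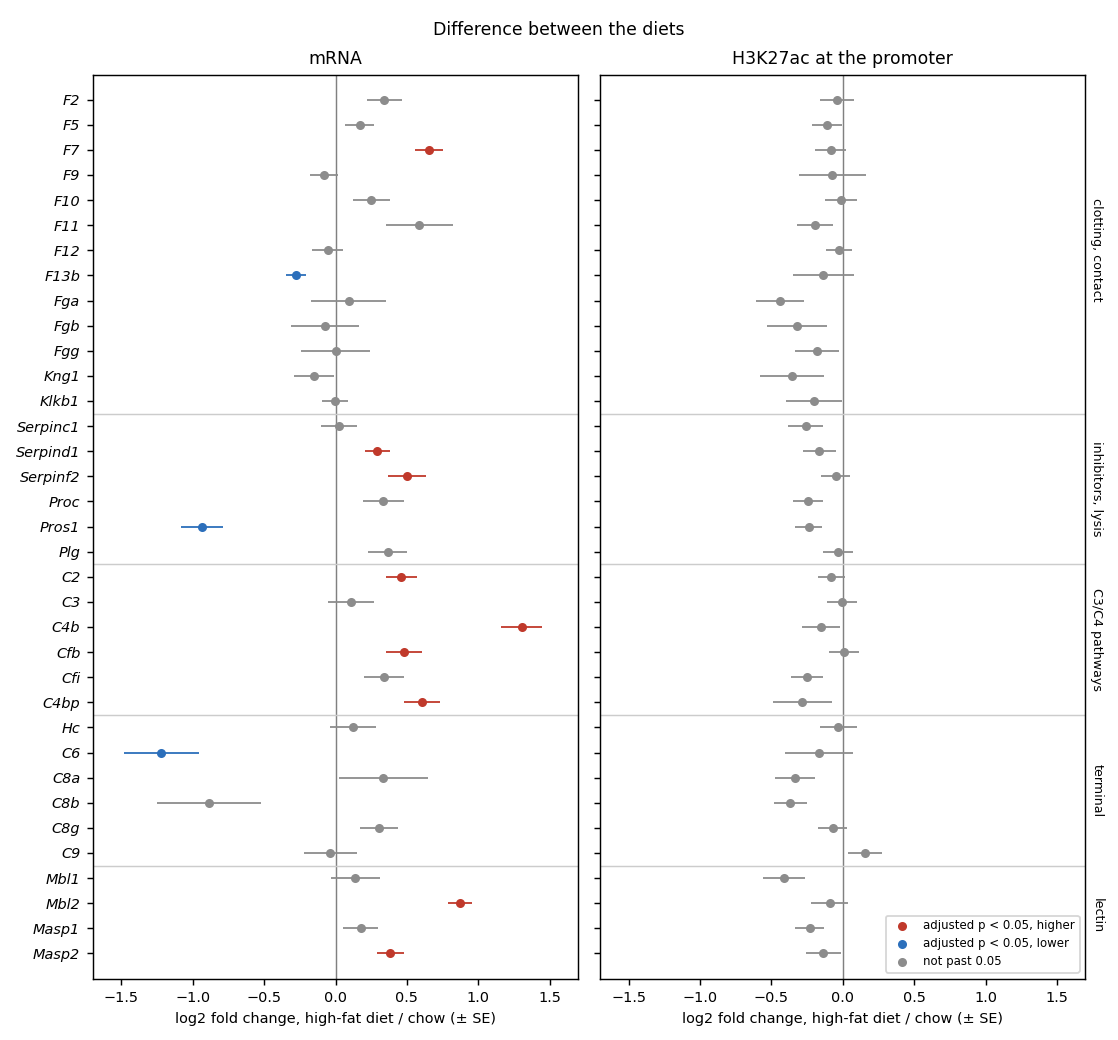
Log2 fold change (high-fat diet over chow) with its standard error for each of the 35 genes, for mRNA on the left and for H3K27ac at the promoter on the right, in role order from clotting at the top to the lectin pathway at the bottom. Red and blue points passed an adjusted p of 0.05 upward and downward, grey points did not: 9 mRNAs were higher, 3 were lower, and no promoter passed, although 33 of 35 promoter values lie below 0.

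Among the members, the complement genes of the early steps all had a log2 fold change above 0, though not all of them passed. Early-step genes outside the members are part of a list given further on. In the classical and alternative pathways 4 of 6 genes rose and none fell, with a median log2 fold change of 0.47. Of all genes tested, 18% were called higher and 17.6% lower. The counts of this and the following role groups, of 4 to 13 genes each, are read against those shares. C4b encodes complement C4, which is split to start both the classical and the lectin C3 convertase. C4b mRNA stood at 2372.5, 1982.7 and 1805.7 CPM on the high-fat diet, against 724.48, 865.51 and 906.07 CPM on chow. Every high-fat-diet library lay above every chow library by a wide margin. The fold was 2.47 (log2 fold change 1.30 ± 0.14 SE, edgeR adjusted p = 0.000446). C4b has a near-identical neighbour, C4a, so reads that match both copies may have been assigned to either or left uncounted. The sum of both averaged 2244 ± 354 CPM on the high-fat diet and 868 ± 96.7 CPM on chow (SD, n = 3 each). Its ratio of 2.58 does not depend on which copy the counted reads were assigned to. Any reads left uncounted are not in it. C2 encodes the protease that joins C4 in that convertase, and it averaged 119 ± 11.5 CPM on the high-fat diet and 86.1 ± 9.86 CPM on chow (SD, n = 3 each), with a log2 fold change of 0.46 ± 0.11 SE and an edgeR adjusted p of 0.0116. Cfb encodes factor B, the matching protease of the alternative pathway and the gene next to C2 on the chromosome. It averaged 1390 ± 212 CPM on the high-fat diet and 998 ± 27.9 CPM on chow (SD, n = 3 each; log2 fold change 0.48 ± 0.13 SE, edgeR adjusted p = 0.0195). C2 lost its call without chow replicate 2 or 3 (edgeR adjusted p at most 0.0588), and Cfb without any 1 of the 3 chow libraries (at most 0.0772).

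C3, the component on which all pathways meet, did not pass. Its mRNA stood at 10008, 8539.8 and 7782 CPM on the high-fat diet, against 7648.7, 8491.6 and 8290.5 CPM on chow. High-fat-diet replicate 1 lay above all others and replicate 3 fell within the chow range, so the diets overlapped (log2 fold change 0.11 ± 0.16 SE, edgeR adjusted p = 0.626). C4bp, the C4b-binding protein that serves as a cofactor in C4b breakdown, stood at 669.12, 584.96 and 479.5 CPM on the high-fat diet, against 352.52, 392.01 and 394.74 CPM on chow. The diets did not overlap, and the log2 fold change was 0.61 ± 0.13 SE (edgeR adjusted p = 0.00762). Thus a component of the pathway and an inhibitor of the same component were both higher. Cfi, the protease that uses this cofactor, was higher without overlap, yet its edgeR adjusted p was 0.0900 with a log2 fold change of 0.34 ± 0.14 SE.

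The lectin pathway starts when mannose-binding lectins bind sugars on a microbial surface and activate the proteases Masp1 and Masp2, which then cleave C4 and C2. Of its 4 genes, 2 rose and 2 did not pass, and the median log2 fold change was 0.28. Mbl2 had 263.02, 233.31 and 248.61 CPM on the high-fat diet, against 126.64, 136.28 and 144.65 CPM on chow. The high-fat-diet libraries were tightly grouped and all far above chow, with a fold of 1.83 (log2 fold change 0.87 ± 0.08 SE) and the lowest adjusted p of all members (edgeR, 0.000256). Its paralogue Mbl1, the other mannose-binding lectin of the mouse, had 227.36, 174.92 and 135.35 CPM on the high-fat diet, against 144.9, 173.43 and 170.23 CPM on chow. Here the diets overlapped, with high-fat-diet libraries both above and below all chow libraries (log2 fold change 0.14 ± 0.17 SE, edgeR adjusted p = 0.560). The ratio of Mbl2 to Mbl1 counts was 1.16, 1.33 and 1.84 on the high-fat diet and 0.874, 0.786 and 0.85 on chow. It stood apart between diets, but Mbl2 alone already did so, and the ratio adds no separate evidence. The ratio was singled out after the values were seen, and the difference between the paralogues was not tested. Masp2 averaged 176 ± 16.0 CPM on the high-fat diet and 135 ± 10.01 CPM on chow (SD, n = 3 each; log2 fold change 0.38 ± 0.09 SE, edgeR adjusted p = 0.0140), and lost its call without chow replicate 2 or 3 (at most 0.0709). Masp1 overlapped between diets, with a log2 fold change of 0.18 ± 0.12 SE.

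The promoters of Mbl2 and Mbl1 are printed because Mbl2 passed and its paralogue did not, while both windows hold a common run of letters near the start site. Each line is the 250 bases before the RefSeq start in build GRCm38.p6, written along the gene, and capitals mark the longest run of letters that both windows hold, 13 bases, which begins 57 bases before the start in Mbl2 and 23 bases before it in Mbl1. Of 32851 promoter windows, 3 held this run on either strand (0.00913%). The run was picked from the windows of Mbl2 and Mbl1, which are among the 3. Its rarity is therefore no evidence of a shared element.
Mbl2 (chr19:30232678-30232927, plus strand): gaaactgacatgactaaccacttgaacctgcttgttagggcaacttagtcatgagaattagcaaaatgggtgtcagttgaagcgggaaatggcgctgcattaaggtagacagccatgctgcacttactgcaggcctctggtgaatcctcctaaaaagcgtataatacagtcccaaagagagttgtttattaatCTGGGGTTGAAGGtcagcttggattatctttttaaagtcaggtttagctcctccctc
Mbl1 (chr14:41151206-41151455, plus strand): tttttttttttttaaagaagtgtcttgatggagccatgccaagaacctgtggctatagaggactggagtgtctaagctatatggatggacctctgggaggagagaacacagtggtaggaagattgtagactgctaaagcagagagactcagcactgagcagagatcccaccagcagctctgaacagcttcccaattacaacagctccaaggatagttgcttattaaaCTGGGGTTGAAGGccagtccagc

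Terminal complement showed no rise past the threshold. Its 6 genes encode C5 (Hc), C6, the 3 chains of C8 and C9. None of them rose, C6 alone fell, and the median log2 fold change was 0.043. C6, which binds C5b to start the membrane pore, had 186.43, 117.71 and 79.44 CPM on the high-fat diet, against 270.68, 315.29 and 307.42 CPM on chow. All high-fat-diet libraries were below all chow libraries, and replicate 3 was at the bottom. C6 had 0.43 of the chow level (log2 fold change -1.22 ± 0.26 SE, edgeR adjusted p = 0.00809), and the log2 fold change was -1.60 once replicate 1 of the high-fat diet was left out. Its promoter is printed as that of the member with the strongest fall. None of the motifs named further on matched in it, so it carries no capitals.
C6 (chr15:4726960-4727209, plus strand): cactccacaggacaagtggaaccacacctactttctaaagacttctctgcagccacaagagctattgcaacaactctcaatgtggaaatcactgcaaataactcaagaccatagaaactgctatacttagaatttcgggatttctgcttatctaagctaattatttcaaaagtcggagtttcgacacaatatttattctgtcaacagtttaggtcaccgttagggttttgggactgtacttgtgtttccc

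The C8 protein is built from an alpha, a beta and a gamma chain, and the genes of the first pair, C8a and C8b, are neighbours on the chromosome. Their values are given in full although neither passed, a choice made after the values were seen. C8a had 843.94, 600.01 and 295.17 CPM on the high-fat diet, against 408.07, 486.64 and 485.39 CPM on chow. The high-fat-diet libraries spread across the whole chow range and beyond it on both sides (log2 fold change 0.33 ± 0.31 SE, edgeR adjusted p = 0.435). C8b had 222.79, 150.67 and 62.756 CPM on the high-fat diet, against 254.61, 290.74 and 260.99 CPM on chow. All high-fat-diet libraries were lower, with the same order among them as for C8a (log2 fold change -0.89 ± 0.36 SE, edgeR adjusted p = 0.0900). C8b passed as lower once high-fat-diet replicate 1, its highest on that diet, was left out (log2 fold change -1.33), and without replicate 3 C8a passed as higher (0.65) and C8b as lower (-0.53). The ratio of C8a to C8b counts was 3.79, 3.98 and 4.7 on the high-fat diet and 1.6, 1.67 and 1.86 on chow. Within each diet the pair kept 1 order of libraries, while the ratio stood apart between diets, as C8b alone already did. The ratio was not tested. The ratio of C6 to C9 counts likewise did not overlap, at 0.396, 0.337 and 0.308 on the high-fat diet and 0.752, 0.814 and 0.855 on chow. C6 alone already stood apart between the diets, so this ratio adds no separate evidence. It too was chosen after the values were seen and was not tested. C9, the pore-forming subunit, and C8g, the gamma chain, had log2 fold changes of -0.036 ± 0.19 and 0.30 ± 0.13 SE. Hc, which encodes C5, stood at 1361.7, 1093.2 and 928.63 CPM on the high-fat diet, against 883.98, 1108.6 and 1117.8 CPM on chow, and the diets overlapped (log2 fold change 0.12 ± 0.16 SE).

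**Figure D2:**
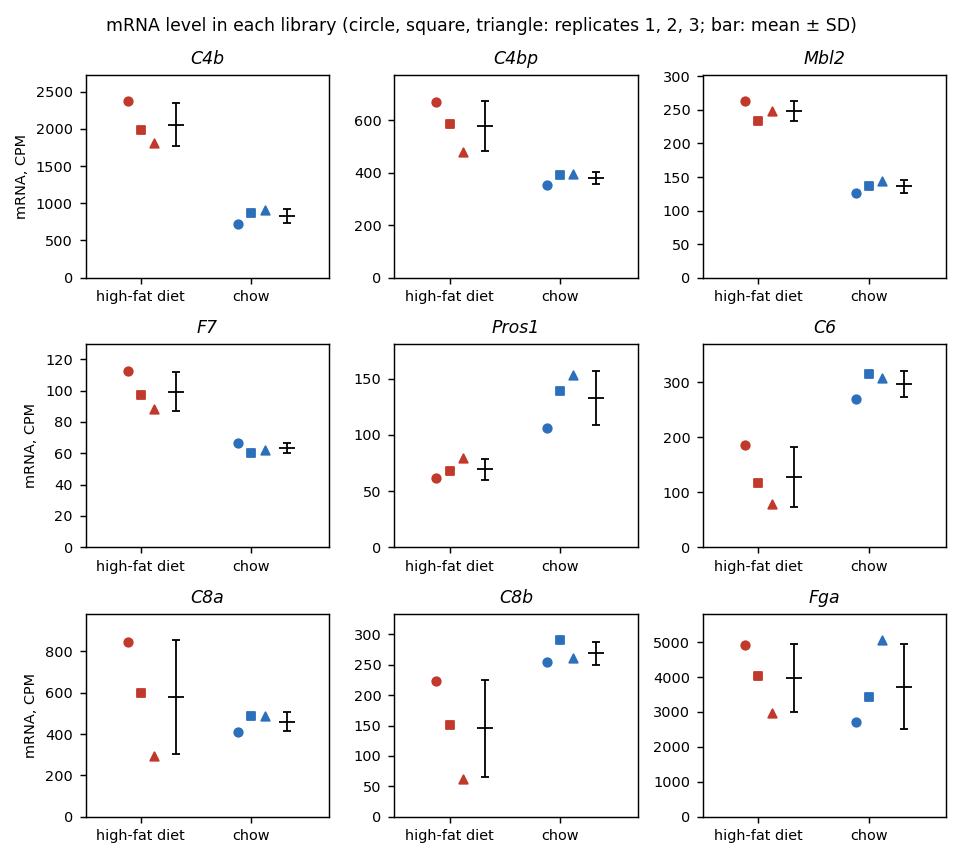
mRNA level in CPM of 9 genes in each library, high-fat diet on the left of each panel in red and chow on the right in blue, with the mean and SD beside the points and the axis starting at 0. C4b, C4bp, Mbl2 and F7 are higher on the high-fat diet in every library, Pros1 and C6 lower in every library, C8a and C8b spread widely on the high-fat diet, and Fga spreads widely on both diets.

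Most genes of the clotting cascade and contact system did not pass. The group counted 1 gene that rose, 1 that fell and 11 of 13 that did not pass, and its median log2 fold change was 0.00052. The gene that rose was F7, which encodes factor VII, the protease that starts clotting together with tissue factor. F7 had 112.72, 96.827 and 88.296 CPM on the high-fat diet, against 66.537, 60.367 and 62.171 CPM on chow. No libraries overlapped, the fold was 1.57 and the log2 fold change 0.65 ± 0.10 SE (edgeR adjusted p = 0.00196). F10, the neighbouring gene, encodes the next protease in the chain and overlapped between the diets, with a log2 fold change of 0.25 ± 0.13 SE. The gene that fell was F13b, the carrier subunit of the factor that crosslinks fibrin, at 165 ± 4.47 CPM on the high-fat diet and 199.9 ± 5.35 CPM on chow (SD, n = 3 each). Its log2 fold change was -0.28 ± 0.07 SE (edgeR adjusted p = 0.0160), and the call was lost without high-fat-diet replicate 2, without chow replicate 2 or 3 (at most 0.0654), and when libraries were scaled by total counts (0.0981). F2, which encodes prothrombin, and F5, the cofactor of prothrombin activation, were higher in all high-fat-diet libraries without passing, with log2 fold changes of 0.34 ± 0.12 and 0.17 ± 0.10 SE. F11 had the next highest value of the group, 0.59 ± 0.24 SE, with an edgeR adjusted p of 0.0843 and overlapping libraries. Both F2 and F11 passed as higher with DESeq2 and without high-fat-diet replicate 3, and F2 also with total counts. F9, F12, Kng1 (kininogen) and Klkb1 (prekallikrein, the neighbour of F11) had log2 fold changes between -0.15 and -0.0051. Kng1 has a near copy, Kng2, and the sum of both gave a ratio of 0.924 between high-fat diet and chow.

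The fibrinogen chains took the most counts of the group and varied from liver to liver on both diets. Fga, the alpha chain, had 4927.2, 4028.2 and 2960.4 CPM on the high-fat diet, against 2711.5, 3414.9 and 5056.3 CPM on chow. The lowest and the highest library were both chow libraries (log2 fold change 0.09 ± 0.26 SE, edgeR adjusted p = 0.809). Fgb and Fgg, the beta and gamma chains, followed the same order of libraries, with log2 fold changes of -0.076 ± 0.24 and 0.00052 ± 0.24 SE. The 3 chains summed to 12302, 10203 and 7718.2 CPM on the high-fat diet, against 7293.1, 9447.4 and 13317 CPM on chow, and the means had a ratio of 1.006. The spread within a diet was thus much wider than the difference between diets. The 3 genes are next to each other on the chromosome, and the ratio of Fgg to Fga counts stayed within 0.645 to 0.671 on the high-fat diet and 0.671 to 0.735 on chow. The ratio of Fgb to Fga counts was 0.844, 0.888 and 0.936 on the high-fat diet and 0.991, 1.03 and 0.962 on chow, without overlap and without a test. These ratios were chosen after the values were seen.

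The promoters of the 3 fibrinogen genes are printed because their mRNAs kept one order across the 6 libraries. Each line is again the 250 bases before the RefSeq start in GRCm38.p6, written along the gene. Capitals mark matches on either strand to 3 motifs: the HNF1 motif GTTAATNAT in Fga, 46 bases before the start; the IL-6 response element CTGGGAA in Fgb and Fgg, 91 and 13 bases before it; and the STAT motif TTCNNNGAA in Fga and Fgb, 234 and 162 bases before it.
Fga (chr3:83025903-83026152, plus strand): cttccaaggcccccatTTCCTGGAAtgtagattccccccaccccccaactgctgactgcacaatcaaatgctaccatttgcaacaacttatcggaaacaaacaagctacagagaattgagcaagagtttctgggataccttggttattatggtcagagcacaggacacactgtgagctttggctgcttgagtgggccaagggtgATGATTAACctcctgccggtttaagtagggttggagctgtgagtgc
Fgb (chr3:83049864-83050113, minus strand): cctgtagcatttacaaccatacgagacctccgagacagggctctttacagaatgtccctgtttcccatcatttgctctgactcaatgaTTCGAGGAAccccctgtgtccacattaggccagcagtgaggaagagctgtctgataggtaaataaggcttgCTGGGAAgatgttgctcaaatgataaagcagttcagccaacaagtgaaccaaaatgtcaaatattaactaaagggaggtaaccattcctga
Fgg (chr3:83007474-83007723, plus strand): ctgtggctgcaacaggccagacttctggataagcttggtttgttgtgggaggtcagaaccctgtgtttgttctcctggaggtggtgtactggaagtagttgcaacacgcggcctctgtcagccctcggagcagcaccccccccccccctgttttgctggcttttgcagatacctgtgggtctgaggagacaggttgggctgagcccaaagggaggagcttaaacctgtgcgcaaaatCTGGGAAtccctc

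RefSeq windows were found for 27 of the 35 members, and those of C2, C4b, Cfb, Cfi, Kng1, Masp1, Plg and Proc were not used here. The HNF1 motif, named for a hepatocyte transcription factor, was in 4 of the 27 (14.8%) and in 0.737% of all 32851 windows. Those 4 genes did not share a response: C4bp rose, F13b fell, and Fga and Hc did not pass. The STAT motif was in 6 members (22.2%) and in 7.02% of all windows, namely C8a, F9, Fga, Fgb, Masp2 and Pros1. The IL-6 response element was in F9, Fgb, Fgg and Masp2 (14.8%) and in 9.1% of all windows, and in F9 and Masp2 it overlapped the STAT match. The HNF4 motif CAAAGTCCA with at most 1 mismatch was in C4bp, C8g, C9 and F9 (14.8%) and in 7.05% of all windows, and TATAAA was in Hc and Klkb1 (7.41%) and in 12.4% of all windows. Member shares count genes with a match in any of their windows, while the shares of all windows count single windows. A match describes the letters of the window only.

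Among inhibitors, anticoagulants and fibrinolysis genes, 2 of 6 rose, 1 fell and 3 did not pass, with a median log2 fold change of 0.31. Pros1 encodes protein S, the cofactor of activated protein C, and had 61.304, 67.516 and 79.216 CPM on the high-fat diet, against 105.99, 139.39 and 153.47 CPM on chow. The diets did not overlap, and the level on the high-fat diet was 0.52 of that on chow (log2 fold change -0.94 ± 0.15 SE, edgeR adjusted p = 0.00224). Serpinf2 encodes alpha-2-antiplasmin, the main inhibitor of plasmin, and had 889.49, 821.01 and 636.01 CPM on the high-fat diet, against 529.38, 540.03 and 588.66 CPM on chow. Replicate 3 of the high-fat diet came close to the highest chow library without meeting it, and the log2 fold change was 0.50 ± 0.13 SE (edgeR adjusted p = 0.0197). Serpind1, which encodes heparin cofactor II, an inhibitor of thrombin, averaged 487 ± 29.1 CPM on the high-fat diet and 398 ± 21.1 CPM on chow (SD, n = 3 each; log2 fold change 0.29 ± 0.09 SE, edgeR adjusted p = 0.0322). Serpinf2 lost its call without high-fat-diet replicate 2 or chow replicate 1 or 2 (at most 0.0838), and Serpind1 without high-fat-diet replicate 2 or any 1 chow library (at most 0.147).

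Plg encodes plasminogen, the precursor of plasmin, and had 2886.5, 2323.5 and 2184.1 CPM on the high-fat diet, against 1843.9, 1900.4 and 1997.8 CPM on chow. It was higher in every high-fat-diet library and missed the threshold (log2 fold change 0.36 ± 0.14 SE, edgeR adjusted p = 0.0666). Plg passed as higher with total counts, with DESeq2 and without high-fat-diet replicate 3. Proc, the gene of protein C, had a log2 fold change of 0.33 ± 0.14 SE with overlap, and Serpinc1, the gene of antithrombin, had 0.026 ± 0.13 SE.

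The livers on the high-fat diet differed among themselves in a regular way. High-fat-diet replicate 1 was the highest of the 3 libraries of its diet in 31 of 35 members, and replicate 3 was the lowest in 27. Over the members, the median log2 ratio to the chow mean was 0.40 in replicate 1, 0.21 in replicate 2 and -0.066 in replicate 3, against -0.047, -0.010 and 0.029 in the chow replicates. The members together took 4.32%, 4.03% and 3.49% of all counts on the high-fat diet, and 2.997%, 3.35% and 3.75% on chow. The median coefficient of variation of the members was 15.2% on the high-fat diet and 6.22% on chow, against 11.4% and 8.46% over all genes. The highest library exceeded the lowest by a wider factor on the high-fat diet than on chow in 28 of 35 members. On the high-fat diet this factor was 3.55 for C8b, 2.86 for C8a, 2.35 for C6, 2.05 for F11, 1.82 for C9 and 1.68 for Mbl1, against 1.14, 1.19, 1.16, 1.31, 1.08 and 1.2 on chow. The fibrinogen chains were the only members over 1.5 on chow, with factors of 1.79 to 1.86. Without high-fat-diet replicate 1 the median log2 fold change of the members was 0.093 with 19 positive values, and without replicate 3 it was 0.30 with 28 positive values. This order was not particular to the members, and its share over all genes was not counted. Other clotting, fibrinolysis and related plasma protein genes of hepatocytes were highest of their diet in high-fat-diet replicate 1 in 23 of 25. Replicate 3 was the lowest in 20. Among acute-phase genes, high-fat-diet replicate 1 was the highest of its diet in 19 of 23, replicate 3 the lowest in 13 and replicate 2 the lowest in 10. Among clotting and related genes of vessel wall and blood cells, replicate 3 was the highest in 12 of 17 and replicate 1 the lowest in 12. Summed hepatocyte markers were 113800, 92460 and 95430 CPM in high-fat-diet replicates 1, 2 and 3. Summed markers of stellate cells and fibroblasts were 206.6, 333 and 489.3 CPM in the same libraries, against 326.9, 319.5 and 314.4 CPM in the chow replicates, and 2 of 9 passed upward and 1 downward. The part of either in the order of libraries was not tested.

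**Figure D3:**
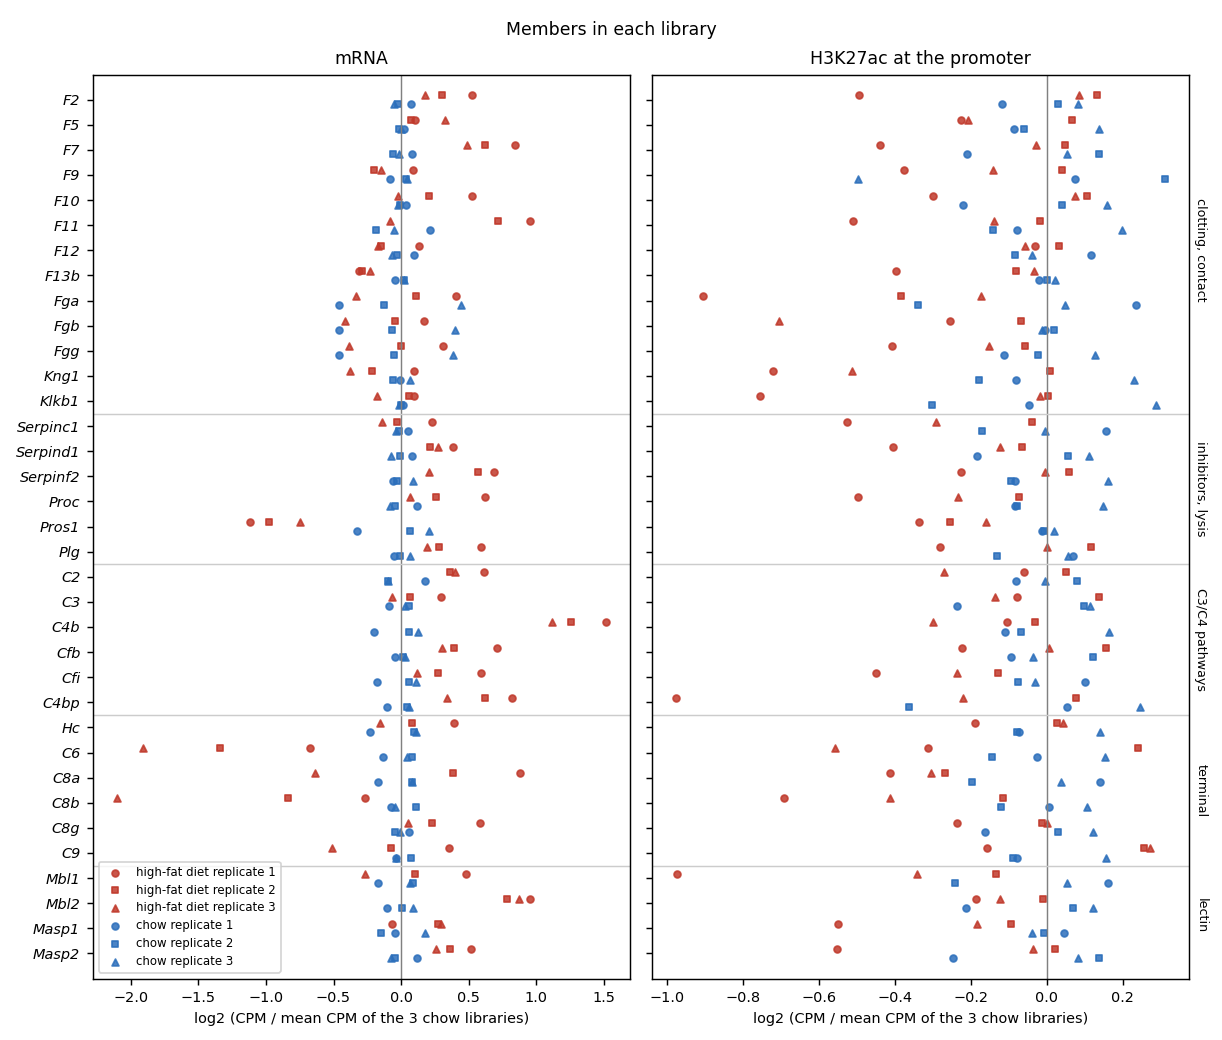
Log2 ratio of each library to the mean of the 3 chow libraries for each of the 35 genes, for mRNA on the left and for H3K27ac at the promoter on the right, with high-fat-diet libraries in red above chow libraries in blue for each gene and the marker shape giving the replicate. For mRNA, high-fat-diet replicate 1 (circles) lies highest of its diet in 31 genes, and at promoters it lies lowest of its diet in 29.

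H3K27ac at the promoters of the same genes was then compared between the diets. No member passed in either direction with edgeR's quasi-likelihood test or with DESeq2, and 9 of 35 had an unadjusted p under 0.05, all with lower signal on the high-fat diet, against 14% of all promoters in either direction. Of all 20891 promoters tested, 0.235% passed, 0.187% upward and 0.0479% downward, while 5.72% were lower and 8.28% higher at an unadjusted p under 0.05. The member values leaned one way: 33 of 35 log2 fold changes (94.3%) were below 0, against 50.6% of all promoters, and the median was -0.15, against -0.0029 over all promoters. The exceptions were C9, at 0.15 ± 0.12 SE, and Cfb, at 0.0063 ± 0.10 SE. In 6 members, F13b, Fgb, Pros1, Cfi, C8a and Masp1, all high-fat-diet libraries were lower than all chow libraries, and in none were all higher. That is 17.1% without overlap, against 19.5% of all promoters, 9.72% downward and 9.77% upward. Promoters with more signal were more often below 0 in the table at large: 30.7% of promoters in the lowest decile by mean CPM and 77.8% in the highest decile. Of the members, 9 lie in the highest decile and 3 in the next, 7 in decile 6, where 58.1% of promoters were below 0, 4 in decile 7, where 66.7% were, and 12 in deciles 2 to 5, where 25.8% to 43% were.

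The promoter with the lowest adjusted p was that of C8b, at 41.212, 61.466 and 50.002 CPM on the high-fat diet, against 66.899, 61.319 and 71.68 CPM on chow. Replicate 2 of the high-fat diet lay just above the lowest chow library (log2 fold change -0.37 ± 0.11 SE, edgeR adjusted p = 0.150). Fga had the lowest log2 fold change, with 20.854, 29.938 and 34.638 CPM on the high-fat diet, against 45.92, 30.874 and 40.345 CPM on chow. The diets overlapped (-0.44 ± 0.17 SE, edgeR adjusted p = 0.233). Pros1, whose mRNA fell, had 53.625, 56.697 and 60.617 CPM on the high-fat diet, against 67.132, 67.323 and 68.608 CPM on chow. All its high-fat-diet libraries were lower without passing (-0.24 ± 0.09 SE, edgeR adjusted p = 0.246). These 3 promoters were chosen after their values were seen.

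The lean was uneven over the libraries. High-fat-diet replicate 1, the shallowest promoter library with 1967613 counts, was the lowest of all 6 libraries in 27 of 35 members. The share over all promoters was not counted, so this is not read as particular to the members. The median log2 ratio of the members to the chow mean was -0.40 in that library, 0.0031 in replicate 2 and -0.14 in replicate 3 of the high-fat diet, against -0.078, -0.067 and 0.11 in the chow replicates. Without it, 24 members were below 0 and 11 above, and the median was -0.091. Without high-fat-diet replicate 2, the promoters of C8b and Mbl1 passed as lower, in a fit that called 3.5% of all promoters.

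Set beside each other, the mRNA and the promoter mark of the members mostly differed in sign. With 25 of 35 mRNA values above 0 and 33 of 35 promoter values below 0, mostly opposite signs follow from those counts alone. They therefore show no link between the mRNA and the mark of a gene, and the share over all genes was not counted. In 24 members the mRNA log2 fold change was above 0 and the promoter value below 0, in 1 both were above 0, in 9 both were below 0, and in 1 the mRNA was below and the promoter above. C4b, with the highest mRNA log2 fold change, had a promoter value of -0.15 ± 0.14 SE, and Mbl2 had -0.091 ± 0.13 SE. C6, with the lowest mRNA value, had a promoter value of -0.17 ± 0.24 SE. Across the 35 members the log2 fold changes of mRNA and promoter had a Pearson correlation of 0.22 and a Spearman correlation of 0.21, against 0.21 and 0.24 across 12791 genes, as descriptions over genes of the same libraries.

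Other genes of the same pathways gave further context for the members. A list of other clotting, fibrinolysis and related plasma protein genes of hepatocytes counted 25 tested, 7 higher and 1 lower. Its median log2 fold change was 0.27. This list, called hepatocyte clotting genes below, also holds secreted proteins outside the clotting chain. Among these are Itih1 to Itih4, Ahsg, Fetub, Ambp, Hgfac and the Serpina1 paralogues. Of all genes, 35.6% were called, 18% upward and 17.6% downward, and the counts of this and the following lists are read against those shares. Itih4, an inter-alpha-trypsin inhibitor heavy chain that is also in the acute-phase list, had a log2 fold change of 1.47 ± 0.24 SE, Hgfac, the hepatocyte growth factor activator, 1.43 ± 0.19 SE, and Proz, protein Z, 0.81 ± 0.09 SE. Serpina10, the protein Z-dependent inhibitor, had a log2 fold change of 0.80 ± 0.19 SE, so the inhibitor and its cofactor both rose. The gene that fell was Itih2, another inter-alpha-trypsin inhibitor heavy chain (-0.77 ± 0.11 SE), named after its value was seen. Other complement genes made in liver counted 28 tested, 6 higher and 3 lower, with a median of 0.23. Cfd encodes factor D, also known as adipsin, which cleaves factor B, and had 10.909, 19.201 and 9.4379 CPM on the high-fat diet, against 1.9185, 1.1795 and 0.21494 CPM on chow (log2 fold change 3.41 ± 0.50 SE). Its chow values rest on only 85, 22 and 4 counts, and which cells of the bulk tissue made it was not tested. C4a had a log2 fold change of 2.40 ± 0.22 SE and Cpn2, a carboxypeptidase N subunit, 0.53 ± 0.11 SE, while the factor H-related gene Cfhr2 fell (-0.81 ± 0.10 SE). These 9 genes passed in every fit that left out 1 library.

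Genes for the finishing and processing of clotting factors were also examined. In a list of 13 genes for the vitamin K cycle, secretion and activation, 7 were higher and 1 was lower, with a median log2 fold change of 0.35. Ggcx encodes the carboxylase that adds the vitamin K-dependent residues to prothrombin, factors VII, IX and X and proteins C, S and Z. Its mRNA had 70.488, 63.755 and 70.315 CPM on the high-fat diet, against 38.798, 35.223 and 32.133 CPM on chow (log2 fold change 0.94 ± 0.09 SE). Asgr2, an asialoglycoprotein receptor subunit, had 0.89 ± 0.12 SE, Pcsk6, a proprotein convertase, 0.87 ± 0.10 SE, and Vkorc1l1, a vitamin K epoxide reductase, fell (-0.75 ± 0.09 SE). Among 27 regulators of hepatocyte clotting and complement genes, 8 were higher and 4 lower past the threshold, with a median of 0.31, against 18% of all genes higher and 17.6% lower. Il1r1, the interleukin-1 receptor, had 2.03 ± 0.16 SE, Onecut1, a hepatocyte transcription factor, 1.98 ± 0.53 SE, Esr1, the oestrogen receptor, 1.03 ± 0.16 SE, and Il6ra, the interleukin-6 receptor, 0.85 ± 0.08 SE. Regulators that fell included Nr2f2 (-0.49 ± 0.12 SE), Nfkbia (-0.42 ± 0.13 SE) and Nr1h4, the bile acid receptor (-0.36 ± 0.09 SE), named after their values were seen. Of these, Nr1h4 kept its call in all 6 fits that left out a library, Nr2f2 in 4 and Nfkbia in 2, with a highest edgeR adjusted p of 0.102 for Nfkbia. Onecut1 kept its call in only 1 of the 6 fits that left out a library, where the highest edgeR adjusted p was 0.0717.

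The acute-phase list counted 23 tested genes, 10 higher and 3 lower, with a median log2 fold change of 0.49. Lcn2, lipocalin-2, which binds bacterial siderophores, had a log2 fold change of 3.92 ± 0.33 SE, and the serum amyloid genes Saa2, Saa1 and Saa4 had 3.79 ± 0.21, 3.08 ± 0.31 and 2.92 ± 0.16 SE. The fibrinogen chains, members whose proteins are themselves acute-phase proteins, did not pass, as given above. Among 17 clotting and related genes of vessel wall and blood cells, 3 rose. They included Serpinb8, a serpin, at 2.15 ± 0.17 SE, and Anxa2, annexin A2, at 1.68 ± 0.34 SE. Anxa2 was also the only gene of these lists whose promoter passed (log2 fold change 0.62 ± 0.11 SE, edgeR adjusted p = 0.0123). Of 8 complement receptors, Itgax alone rose (1.28 ± 0.36 SE), and its call was lost without high-fat-diet replicate 3 or chow replicate 2 or 3 (at most 0.0882).

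**Figure D4:**
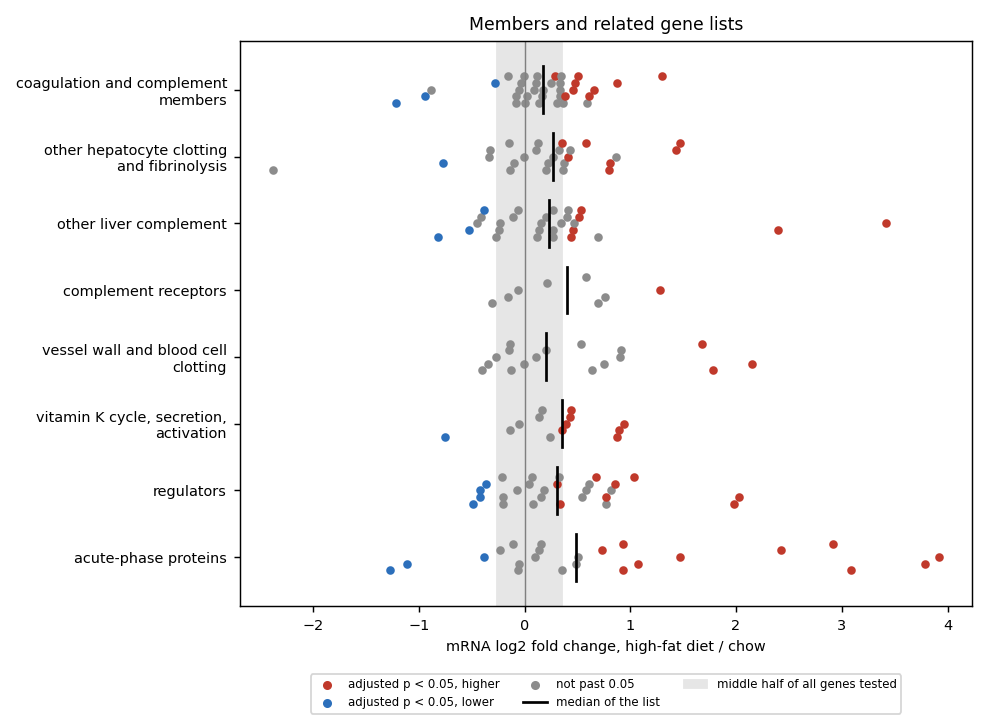
mRNA log2 fold change (high-fat diet over chow) of each tested gene of the 35 members and of the 7 related gene lists, 1 point per gene, with red and blue points past an adjusted p of 0.05 and grey points not. Black bars are the medians, 0.18 for the members and 0.20 to 0.49 for the lists, and the grey band is the range from -0.26 to 0.35 that holds the central part of all genes tested, from the 25th to the 75th percentile.

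The authors' deposited table of mRNA differences called 17 members higher and 3 lower. The calls of 11 members were shared in direction with the fit described above, 9 were called only in the authors' deposited table and 1, F13b, only in the fit. The authors' deposited table gave C3 a log2 fold change of 0.47, F12 -0.29 and Cfi 0.53, all 3 called there. F2, F5, F11, Plg and C8g were also called higher there and not in the fit. F9 was called higher there at 0.25, while its value in the fit had the opposite sign, -0.081, and did not pass. For members that passed in every fit, the authors' deposited table gave log2 fold changes of 0.99 for C4b, 1.02 for Mbl2, 0.89 for C4bp, 0.47 for F7, -1.10 for C6 and -0.71 for Pros1. The sign was shared in 31 of 35 members, and in all 35 for the promoters, of which the authors' deposited table called none and gave no adjusted p for F2 and Masp2.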

How the data were processed

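Liver mRNA and H3K27ac at gene promoters were compared between the diets, with 3 libraries per diet in each. Per the submitters' processing notes, the authors used TopHat 1.4.0, HTSeq, DESeq2 1.0.18 and bedtools for mRNA and Bowtie 0.12.7, MACS 1.4.0rc2, bedtools and DESeq2 for ChIP, on mm9. The deposited tables hold raw read counts per gene and per promoter, promoter width and strand setting not given in the sources used here. The authors' deposited tables of log2 fold changes carry their own p-values. Each count table was fitted whole with edgeR 4.0.16 (R 4.3.3; filterByExpr, TMM, quasi-likelihood F test, two-sided, diet as the only term), with Benjamini-Hochberg adjustment over all features and a threshold of 0.05. Each SE comes from the F statistic. Alternatives were other scalings, no filter, DESeq2 1.42.0, the replicate number as a block and leaving out each library. The test was tried on simulated data in a single draw. The share of false calls lay well above the threshold for mRNA and somewhat above it for promoters. Most of the smaller planted changes were missed, more of them for mRNA than for promoters. No libraries agreed within sampling noise. The 35 members and the gene lists were chosen with earlier results of these data known. Values in every library are given for members past the threshold with an absolute log2 fold change of at least 0.5 and for the member of each role with the highest CPM on chow, and up to 4 genes are named per list, with some genes not reported here. H3K4me1, H3K4me3 and peak tables were not used here, and transcript lengths were not at hand, so levels are not compared between genes. Counts limit precision, and reads carry no molecular identifiers.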

Additional observations from a re-analysis of the deposited data

How the results depend on the processing

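Leaving out each library in turn gave 4 to 17 members higher (9 with all libraries) and 2 to 4 lower, within 1489 to 2580 genes higher and 1410 to 2583 lower. Scaling by total counts gave 15 members higher and moved the median of all genes to 0.102. No other alternative moved the members' counts by over 1.5 times. For promoters, leaving out a library gave 0 to 537 higher, 0 to 199 lower, and 0 to 2 members lower. Same-numbered mRNA libraries had deviations correlated at 0.10, -0.0667 and 0.16 and promoter libraries at 0.0946, -0.0123 and 0.046, so the numbers were not taken as pairs. The replicate block added C8b to the members called in mRNA (13 in all) and gave 314 promoters higher and 154 lower, none a member.

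Among the lists, counts higher and lower over the same omissions were 5 to 10 and 1 to 4 for hepatocyte clotting genes, 4 to 8 and 2 to 5 for other complement, 3 to 6 and 0 to 2 for vessel wall and blood, 4 to 11 and 1 to 6 for regulators, 10 to 11 and 1 to 3 for acute-phase genes, and 4 to 7 higher for the vitamin K list and 0 to 4 for receptors. Hepatocyte clotting genes had 2 lower with DESeq2 size factors, no filter or the replicate block, vessel wall genes had 5 higher with DESeq2, and regulators had 2 lower with total counts.

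Signs that turned were all of values not past the threshold. In mRNA, F12 was 0.0150, Klkb1 0.0691 and C9 0.0251 with total counts, and Fgg was -0.00929 with DESeq2 size factors, -0.00932 with DESeq2 and -0.00275 without a filter. At promoters, F10 was 0.0152, F12 0.000878 and C3 0.0192 with total counts, and Cfb was -0.0121 with the block. Omissions gave ranges across 0 in mRNA for Fga (-0.10 to 0.36), Fgb (-0.26 to 0.16), Fgg (-0.19 to 0.22), Klkb1 (-0.059 to 0.0761), Serpinc1 (-0.0884 to 0.10), Hc (-0.0384 to 0.24), C8a (-0.0408 to 0.65), C9 (-0.28 to 0.15) and Mbl1 (-0.0709 to 0.31). At promoters they did so for F2 (-0.15 to 0.11), F7 (-0.19 to 0.0235), F9 (-0.30 to 0.0679), F10 (-0.12 to 0.0897), F12 (-0.0567 to 0.0400), Serpinf2 (-0.11 to 0.044), Plg (-0.12 to 0.0429), C2 (-0.17 to 0.0100), C3 (-0.12 to 0.0638), Cfb (-0.086 to 0.0916), Hc (-0.0752 to 0.0518), C6 (-0.47 to 0.0205) and Masp2 (-0.25 to 0.00252). The cause was not tested. Each symbol had 1 promoter row, so summing rows changed nothing.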
